A study of Mus musculus with 6 samples.

Results

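Genes that cells switch on when oxygen is short, and that lie outside glycolysis, were followed in mouse bone marrow cells exposed to high potassium. The 10 members were taken by symbol from the 19162 genes of the deposited table. By role they were the oxygen-labile transcription factor subunit Hif1a, the oxygen sensors Egln1 and Egln3, and the secreted factors Vegfa and Adm. The others encoded the endoplasmic reticulum oxidase Ero1l, the mitochondrial proteins Bnip3 and Pdk1, and the intracellular proteins Ndrg1 and Ankrd37. The KCl group held 3 libraries of C57BL/6J mouse bone marrow cells, kept in 34.7 mM of extra KCl and in GM-CSF, a myeloid growth factor, at 40 ng/mL over 4 days. The control group held 3 libraries of such cells in GM-CSF without the extra KCl, labelled untreated. The series title calls the cells bone marrow-derived myeloid-derived suppressor cells, immature myeloid cells known to restrain T cells. Both groups carried replicate numbers 1, 2 and 4, and nothing in the labels says that these mark separate mice or cultures, so the spread behind each p-value is that of these 6 libraries and may be technical. A control for osmolality was not analysed here.

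In cells with enough oxygen, the prolyl hydroxylases that Egln1 and Egln3 encode mark the HIF alpha subunit, and the VHL ubiquitin ligase then sends it for destruction. When oxygen falls, the alpha subunit persists, pairs with ARNT and binds DNA at hypoxia response elements. It then raises genes for vessel growth, for a shift away from mitochondrial respiration, and for its own hydroxylases as feedback. Hif1a is controlled mainly at the protein level, so its mRNA does not report the activity of the factor. In myeloid cells, HIF is known for sustaining energy supply and survival at inflamed, poorly oxygenated sites. Potassium exposure is not a hypoxia treatment, and no oxygen measurement was used here.

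Library totals ran from 17814232 to 18933948 counts in KCl and from 14118724 to 21694831 in control. The libraries numbered 4 were not independent of the rest. Over 8231 genes with a mean of at least 300 counts, the mean CPM (reads scaled by TMM to a common library size) of KCl 4 and control 4 matched that of the other 4 libraries to an SD of 0.0106 on the log2 scale. From counting noise an SD of 0.0442 would be due, and any other choice of a pair (14 in all) gave 0.123 to 0.262. In effect, what control 4 showed above that mean, KCl 4 showed below it, and p-values from all 6 libraries may be too small. Changes of the members and the counts of calls are therefore also given without replicate 4.

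Markers of the cell types were read as summed CPM. The 8 general myeloid markers summed to between 13880 and 16990 CPM in KCl and between 9155 and 11080 CPM in control. Of these 4 rose, and most of the difference in the sum lay in Lyz2, with 9942 CPM in KCl and 5451 CPM in control, while Ptprc and Itgam did not pass (edgeR adjusted p = 0.544 and 0.464). The 8 monocyte markers summed to between 2356 and 2743 CPM in KCl and between 1818 and 2077 CPM in control, and 4 rose. The 8 macrophage markers summed to between 649 and 748 CPM in KCl and between 521 and 655 CPM in control, and 2 rose. The 10 neutrophil markers summed to between 18130 and 25640 CPM in KCl and between 14650 and 16610 CPM in control, and 4 of the 10 rose. The 10 dendritic cell markers summed to between 4659 and 5845 CPM in KCl and between 6006 and 9147 CPM in control, and 5 of the 10 fell. The 10 eosinophil, basophil and mast cell markers summed to between 1250 and 1397 CPM in KCl and between 2520 and 2738 CPM in control, and 1 rose and 5 fell. By the test described below, 12.4% of all tested genes rose and 10.5% fell. The part of these markers in the results below was not tested. The 8 stromal and endothelial markers summed to between 79.2 and 89.5 CPM in KCl and between 80.5 and 90.3 CPM in control, and 1 rose. Most of that sum was Pecam1, at 65.5 CPM in KCl and 70.7 CPM in control. The 7 lymphocyte markers stayed at or below 26.6 CPM in KCl and 19.6 CPM in control, the 6 erythroid markers at or below 3.43 CPM in KCl and 3.05 CPM in control, and no marker of any list was at 0 in all 6 libraries. In these bulk samples, fewer cells of a type and less RNA per cell cannot be told apart.

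The members' promoters were searched for ACGTG and GCGTG, the core letters of the hypoxia response element, on both strands. RefSeq (GRCm38.p6, the mm10 sequence) gave a promoter, from 250 bases before to 50 bases after the start, for 9 of the 10 members. None was available for Ndrg1, which was therefore not searched. Each of the 9 held a match in at least 1 promoter, but Vegfa and Pdk1 had 2 promoters each. The Vegfa promoter at chr17:46032328-46032627, which covers the annotated start of the gene, held no match. Its matches lay in the other, at chr17:46025114-46025413. The second Pdk1 promoter held no match. The shares that follow are per promoter and not per gene. Of all 32851 promoters of that length, 43.8% held either motif, 19.6% held ACGTG and 32.4% held GCGTG, with no matching on base composition. The promoters of Ero1l, Bnip3 and Ankrd37 are shown because Ero1l passed the test below and Bnip3 and Ankrd37 had the largest fold changes without replicate 4. Capitals mark the matches, on either strand, and an uppercase run longer than 5 letters holds overlapping matches.
Ero1l, minus strand, chr14:45318523-45318822: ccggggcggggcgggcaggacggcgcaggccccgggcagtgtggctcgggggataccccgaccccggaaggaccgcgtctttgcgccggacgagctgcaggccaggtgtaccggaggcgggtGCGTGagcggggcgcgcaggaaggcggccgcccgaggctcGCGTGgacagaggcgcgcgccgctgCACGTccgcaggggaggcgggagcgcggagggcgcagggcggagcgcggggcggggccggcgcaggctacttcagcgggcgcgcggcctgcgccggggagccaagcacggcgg
Bnip3, minus strand, chr7:138909457-138909756: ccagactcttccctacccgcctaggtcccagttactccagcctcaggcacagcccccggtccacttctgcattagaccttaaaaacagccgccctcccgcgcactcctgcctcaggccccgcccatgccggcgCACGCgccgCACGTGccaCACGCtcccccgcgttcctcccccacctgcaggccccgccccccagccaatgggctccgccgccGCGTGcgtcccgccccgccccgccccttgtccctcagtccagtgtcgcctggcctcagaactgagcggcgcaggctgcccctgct
Ankrd37, minus strand, chr8:45999801-46000100: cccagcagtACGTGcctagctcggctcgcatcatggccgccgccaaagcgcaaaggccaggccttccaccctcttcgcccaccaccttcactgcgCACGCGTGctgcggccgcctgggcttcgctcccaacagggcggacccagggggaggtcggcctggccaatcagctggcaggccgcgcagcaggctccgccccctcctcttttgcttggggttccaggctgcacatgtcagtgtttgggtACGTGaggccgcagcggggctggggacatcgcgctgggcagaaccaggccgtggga
Ero1l had 1 ACGTG and 2 GCGTG matches. Bnip3 had 2 ACGTG matches, which are the same CACGTG read on both strands 108 and 107 bases before the start, and 3 GCGTG matches. Ankrd37 had 2 of each, the nearest beginning 6 bases before the RefSeq start. That promoter lies within the GENCODE span of the gene, chr8:45996902-46005707 (minus strand), and does not cover its annotated start. The Hif1a promoter, chr12:73907617-73907916, likewise lies within the gene, which starts at 73901375 (plus strand). CACGTG, whose matches overlap in this way, occurred in 7.15% of all promoters. A match is a string of letters and not a measured binding site.

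By level, the members spanned from near silence to the top of the transcriptome. Levels are compared between genes as deposited FPKM, which divides by gene length. Averaged over the 6 libraries, Ero1l stood highest at 62.2 FPKM, at the 96.2nd percentile of the table, followed by Egln3 at 30.4, Hif1a at 29.9 and Egln1 at 22.0 FPKM. Bnip3 followed at 14.0 and Ndrg1 at 11.7, then Pdk1 at 6.00 and Vegfa at 4.80 FPKM. Each of these overlapped the next in the order in its range over libraries. Vegfa, with 3.45 FPKM at its lowest, stood clear of Ankrd37, which averaged 2.19 FPKM and reached 2.98. Ankrd37 in turn stood clear of Adm at 0.0919 FPKM.

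**Figure D1:**
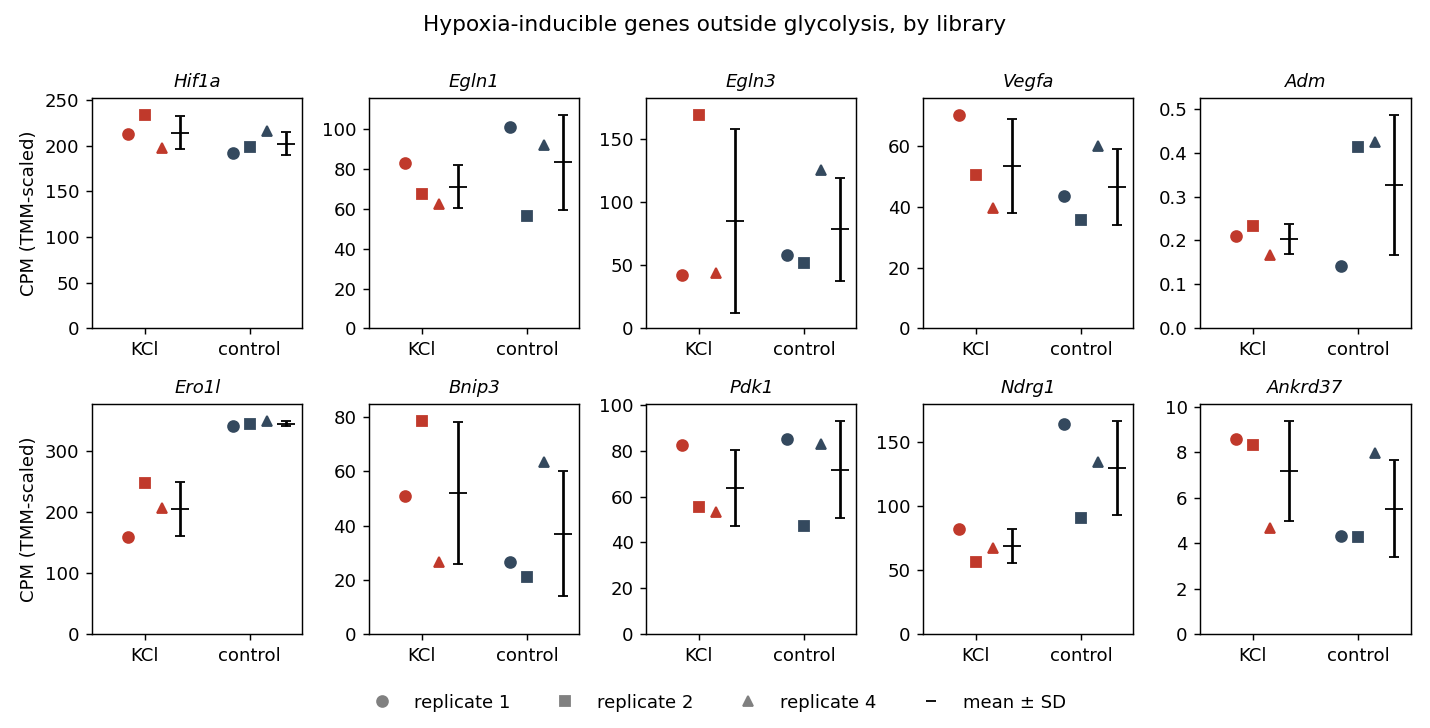
TMM-scaled CPM of each member (vertical axes, linear from 0) in the 3 KCl and 3 control libraries, with the replicate number as the symbol and the mean ± SD as the bar. Ero1l and Ndrg1 lie lower in all 3 KCl libraries than in any control library, while Bnip3, Ankrd37 and Vegfa are high in KCl 1, KCl 2 and control 4.

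With all 6 libraries, 2 of the 9 members tested fell in KCl, namely Ero1l and Ndrg1, and 0 rose (edgeR's quasi-likelihood test, Benjamini-Hochberg adjusted p of at most 0.05 over 13326 genes). Of all tested genes, 22.9% passed that threshold, 12.4% higher and 10.5% lower, so the members' share was close to the background. At an unadjusted p under 0.05 the same 2 members were counted, none of them higher in KCl, against 34.2% of all tested genes. Adm was too scarce to test. Without replicate 4, edgeR called 0 of the 9, against 0.458% of 13525 genes. At an unadjusted p under 0.05 it then counted 5 of the 9, against 29.8% of all tested genes, with Vegfa, Bnip3 and Ankrd37 higher and Ero1l and Ndrg1 lower in KCl. DESeq2 and limma-voom on all 6 libraries also called Ero1l and Ndrg1 and no other member. The groups did not overlap for Ero1l and Ndrg1, both lower in KCl. Over all tested genes 38.5% did not overlap, 18.4% with KCl below and 20.2% with KCl above.

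Ero1l encodes the oxidase that passes disulfide bonds to protein disulfide isomerase in the endoplasmic reticulum. It had 159, 247 and 206 CPM in KCl 1, 2 and 4, against 341, 344 and 349 CPM in control 1, 2 and 4. All 3 KCl libraries were lower than all 3 control libraries, and the controls were nearly level while the KCl libraries were spread. Ero1l averaged 204 ± 44.0 CPM in KCl and 345 ± 3.96 CPM in control (SD, n = 3 each), a log2 fold change of -0.76 ± 0.15 (SE) with an edgeR adjusted p of 0.0169. The fold change was -0.75 ± 0.22 without replicate 4 (edgeR adjusted p = 0.112). The call was also lost without KCl 4 (edgeR adjusted p = 0.0565) or control 4 (0.0527), and the adjusted p over all 16 alternatives ran from 3.53e-05 (DESeq2) to 0.112. In mm10 the gene spans chr14:45283087-45318771 (minus strand).

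Other genes of disulfide formation in the endoplasmic reticulum were compared with Ero1l. The 8 tested genes held 1 that rose, 3 that fell and 4 that did not pass, while 12.4% of all tested genes rose and 10.5% fell. The list had a median log2 fold change of -0.09 against -0.0045 over all tested genes. The list median was -0.21 without replicate 4 and ran from -0.16 without control 4 to -0.04 without KCl 1 when a single library was left out. The disulfide isomerase genes Pdia5 (9.05 ± 0.501 CPM in KCl, 14.2 ± 0.225 CPM in control), P4hb (914 ± 11.1 CPM in KCl, 1123 ± 14.4 CPM in control) and Pdia3 (674 ± 9.64 CPM in KCl, 822 ± 17.6 CPM in control) fell. Their log2 fold changes were -0.65 ± 0.07, -0.30 ± 0.05 and -0.29 ± 0.05. Ero1lb, the paralog of Ero1l, rose, with 52.5 ± 1.35 CPM in KCl and 43.7 ± 1.16 CPM in control. Pdia3 missed the threshold without KCl 4 (edgeR adjusted p = 0.0506) and Ero1lb without KCl 4 or control 4 (up to 0.0662). Without replicate 4, edgeR called 0 of the 8, with 5 at an unadjusted p under 0.05, against 29.8% of all tested genes.

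Ndrg1, a cytoplasmic protein gene linked to differentiation and stress, had 82.3, 56.1 and 66.8 CPM in KCl 1, 2 and 4, against 164, 90.8 and 135 CPM in control 1, 2 and 4. The highest KCl library stayed below the lowest control library, by a narrow margin. Ndrg1 averaged 68.4 ± 13.2 CPM in KCl and 130 ± 36.6 CPM in control (SD, n = 3 each), with a log2 fold change of -0.92 ± 0.24 and an edgeR adjusted p of 0.0394. Without replicate 4 the fold change was -0.88 ± 0.33 (edgeR adjusted p = 0.165). Leaving out control 2 kept the call (edgeR adjusted p = 0.0169), and leaving out any of the other 5 libraries lost it (0.0529 to 0.114 by edgeR). In both groups the libraries stood in the order 1, 4, 2 from high to low, and so did the summed dendritic cell markers, at 5845, 4936 and 4659 CPM in KCl and at 9147, 7952 and 6006 CPM in control. KCl 4 and control 4 were tied to the mean of the other libraries, so the place of number 4 in these orders was not independent. The dendritic cell list was singled out with the values known, and the part of those markers in the Ndrg1 result was not tested. The gene spans chr15:66929318-66969640 (minus strand) and shares 137 exon bases with Gm2895 and 419 with Gm17035, both on the opposite strand.

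Of the 3 relatives of Ndrg1, 1 rose, 1 fell and 1 did not pass, while 12.4% of all tested genes rose and 10.5% fell. Ndrg2 rose, with 56.7 ± 5.77 CPM in KCl and 22.7 ± 1.89 CPM in control (log2 fold change 1.32 ± 0.10, edgeR adjusted p = 0.00234). It also passed without replicate 4, with a log2 fold change of 1.41 and an edgeR adjusted p of 0.0437. Ndrg4 fell, with 2.92 ± 0.735 CPM in KCl and 9.66 ± 2.81 CPM in control (-1.72 ± 0.28, edgeR adjusted p = 0.00942), but its edgeR adjusted p was 0.0918 without replicate 4. Ndrg3 did not pass, at 41.8 ± 0.551 CPM in KCl and 40.3 ± 1.297 CPM in control.

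**Figure D2:**
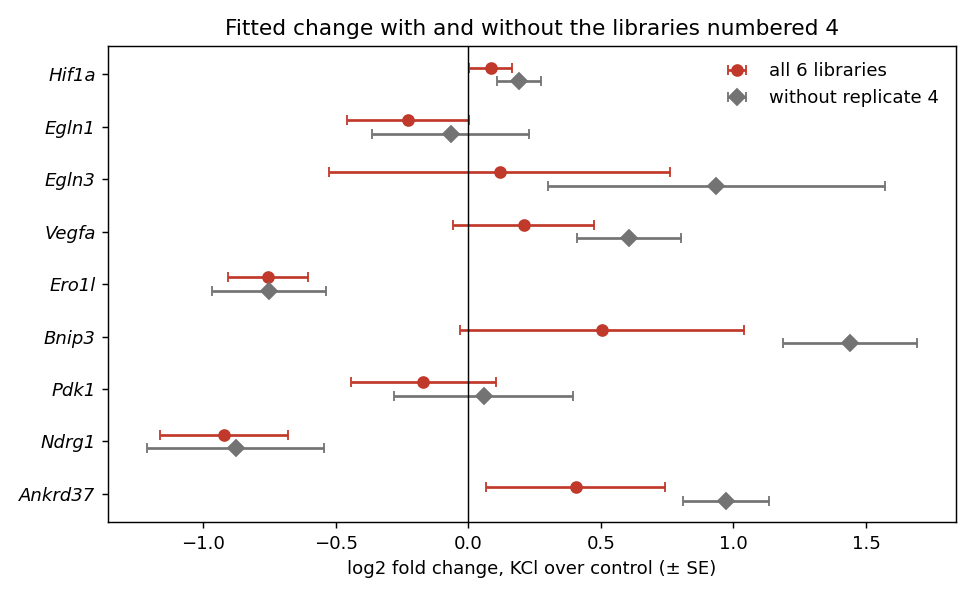
Fitted log2 fold change, KCl over control, of the 9 tested members (horizontal axis, bars are ± SE), with all 6 libraries (red circles) and without KCl 4 and control 4 (grey diamonds). Ero1l stands at -0.76 and -0.75 and Ndrg1 at -0.92 and -0.88, and neither passes without replicate 4 (edgeR adjusted p = 0.112 and 0.165), while Bnip3 stands at 0.50 with all 6 libraries and at 1.44 without replicate 4.

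Hif1a itself had 212, 233 and 197 CPM in KCl 1, 2 and 4, against 192, 198 and 216 CPM in control 1, 2 and 4. The groups overlapped, and Hif1a was the steadiest member, with a range of 1.22-fold over the 6 libraries. Its log2 fold change was 0.08 ± 0.08 (edgeR adjusted p = 0.578). It was 0.19 ± 0.08 without replicate 4 (edgeR adjusted p = 0.194) and 0.017 without KCl 2. The gene spans chr12:73901375-73947530 (plus strand). The antisense gene Gm15283 shares 330 of its exon bases and had at most 2 counts in any library, and Gm49321 shares 148 on the same strand.

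Egln1, the main hydroxylase that keeps HIF alpha low in oxygenated cells, had 83.2, 67.4 and 62.6 CPM in KCl 1, 2 and 4, against 101, 56.4 and 92.3 CPM in control 1, 2 and 4. The groups overlapped, since control 2 was lower than every KCl library. Its log2 fold change was -0.23 ± 0.23 (edgeR adjusted p = 0.596), -0.07 ± 0.30 without replicate 4 and -0.45 without control 2 (edgeR adjusted p = 0.0758). Egln1 spans chr8:124908587-124949324 and Egln3 chr12:54178981-54203860, both on the minus strand. Egln3, the hydroxylase that HIF itself induces strongly and that is known to help neutrophils survive low oxygen, had 42.0, 169 and 43.6 CPM in KCl 1, 2 and 4, against 58.3, 51.8 and 125 CPM in control 1, 2 and 4. A high library stood out in each group, KCl 2 and control 4, and its log2 fold change was 0.12 ± 0.64 (edgeR adjusted p = 0.914). Without KCl 2 the fold change was -0.87, and without replicate 4 it was 0.94 ± 0.64, with no call in either fit (edgeR adjusted p = 0.255 and 0.359).

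The list of oxygen sensing genes and HIF subunits had 14 tested genes: 1 rose, 2 fell and 11 did not pass. The shares over all tested genes were 12.4% higher and 10.5% lower. The list's median log2 fold change was -0.02. It was -0.08 without replicate 4, and it turned to 0.0035 without KCl 1 and 0.0073 without control 2. Epas1, which encodes HIF-2 alpha, rose, with 4.46 ± 0.511 CPM in KCl and 2.15 ± 0.257 CPM in control (log2 fold change 1.06 ± 0.15, edgeR adjusted p = 0.00692). P4htm, a transmembrane prolyl hydroxylase of the endoplasmic reticulum, was scarce and fell, with 4, 4 and 5 counts in KCl 1, 2 and 4 and 24, 24 and 17 counts in control 1, 2 and 4 (edgeR adjusted p = 0.00326). Cul2, the scaffold of the VHL ligase, fell slightly, at 58.2 ± 0.627 CPM in KCl and 66.9 ± 0.310 CPM in control, and lost its call on leaving out any 1 library (0.0522 to 0.107 by edgeR). Ep300, a HIF coactivator, had 244 ± 10.7 CPM in KCl and 222 ± 8.01 CPM in control and did not pass. Without replicate 4, edgeR called 0 of the 14, with 3 at an unadjusted p under 0.05, against 29.8% of all tested genes.

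Bnip3, Ankrd37 and Vegfa shared an arrangement over the libraries. Bnip3, a mitophagy receptor on the outer mitochondrial membrane, had 50.8, 78.6 and 26.6 CPM in KCl 1, 2 and 4, against 26.7, 20.9 and 63.5 CPM in control 1, 2 and 4. KCl 1 and 2 were higher than control 1 and 2, and KCl 4 was lower than control 4. Averages of 52.0 ± 26.0 CPM in KCl and 37.0 ± 23.1 CPM in control gave a log2 fold change of 0.50 ± 0.54 (edgeR adjusted p = 0.611). Without replicate 4 it was 1.44 ± 0.25, with an unadjusted edgeR p of 0.00259 and an adjusted p of 0.0726. It was 0.078 without KCl 2 (edgeR adjusted p = 0.963), 0.21 without control 2 and 0.30 without control 1, against 0.82 without KCl 4 and 1.12 without control 4. KCl 4 and control 4 averaged 45.0 CPM and the other 4 libraries 44.2 CPM. Bnip3 spans chr7:138890836-138909519 (minus strand) and shares 504 exon bases with the antisense gene Gm45507.

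Ankrd37, a small ankyrin repeat protein gene with strong HIF induction, had 8.56, 8.34 and 4.65 CPM in KCl 1, 2 and 4, against 4.33, 4.26 and 7.98 CPM in control 1, 2 and 4. The same 3 libraries were high. Its log2 fold change was 0.40 ± 0.34 with all 6 libraries (edgeR adjusted p = 0.513) and 0.97 ± 0.16 without replicate 4 (edgeR adjusted p = 0.0708). With a single library left out it ran from 0.25 without control 1 to 0.74 without control 4. The gene spans chr8:45996902-46005707 (minus strand). It shares 57 exon bases with Ufsp2 and 349 with Lrp2bp, both on the opposite strand. Lrp2bp had at most 3 counts in any library, while Ufsp2 had 868, 786 and 818 counts in KCl 1, 2 and 4 and 1159, 1163 and 767 counts in control 1, 2 and 4. Whether the counting used strand is not given in the sources used here.

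Vegfa, the main growth factor for blood vessels, had 70.2, 50.5 and 39.6 CPM in KCl 1, 2 and 4, against 43.7, 35.6 and 60.1 CPM in control 1, 2 and 4. Again KCl 1 and 2 were higher than the controls of the same number and KCl 4 was lower than control 4. Its log2 fold change was 0.21 ± 0.27 (edgeR adjusted p = 0.655), 0.61 ± 0.20 without replicate 4 (edgeR adjusted p = 0.131), 0.045 without control 2 and -0.040 without KCl 1. Vegfa spans chr17:46016993-46032369 (minus strand).

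Counted over replicate numbers, 4 of the 9 tested members were higher in KCl at numbers 1 and 2 and lower at number 4, namely Hif1a, Vegfa, Bnip3 and Ankrd37. That is 44.4% of the members, and 14.0% of all tested genes showed it. The pairing by number carries no stated meaning, and KCl 4 and control 4 were tied to the mean of the others, so these values describe the libraries and are not a test. The same arrangement held in 10 of 36 other HIF targets outside glycolysis (27.8%), and in 7 of 19 HIF targets of glycolysis (36.8%). It held in 2 of 14 oxygen sensing genes and HIF subunits (14.3%), 1 of 8 disulfide formation genes and 2 of 11 pyruvate dehydrogenase genes. It held in 3 of 8 mitophagy genes, 3 of 8 VEGF ligands and receptors and 0 of 3 relatives of Ndrg1. Of the 4 genes of the calcitonin receptor-like receptor and its accessory subunits, 1 showed it. Among the cell type lists it held in 4 of 8 stromal and endothelial markers, 2 of 5 lymphocyte markers and 3 of 10 neutrophil markers. It held in 2 of 8 monocyte, 2 of 8 macrophage and 2 of 8 general myeloid markers, in 2 of 10 eosinophil, basophil and mast cell markers, in 1 of 10 dendritic cell markers and in 0 of 1 erythroid marker tested. The 3 neutrophil markers, named after their values were seen, were Ly6g, Cxcr2 and Mmp8, while 6 of the 10 (S100a9, Csf3r, Camp, Ltf, Ngp and Cd177) were higher in KCl at all 3 numbers. Ly6g had 37.3, 66.7 and 26.8 CPM in KCl 1, 2 and 4, against 22.2, 33.2 and 49.9 CPM in control 1, 2 and 4, and the part of such markers in the arrangement was not tested.

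**Figure D3:**
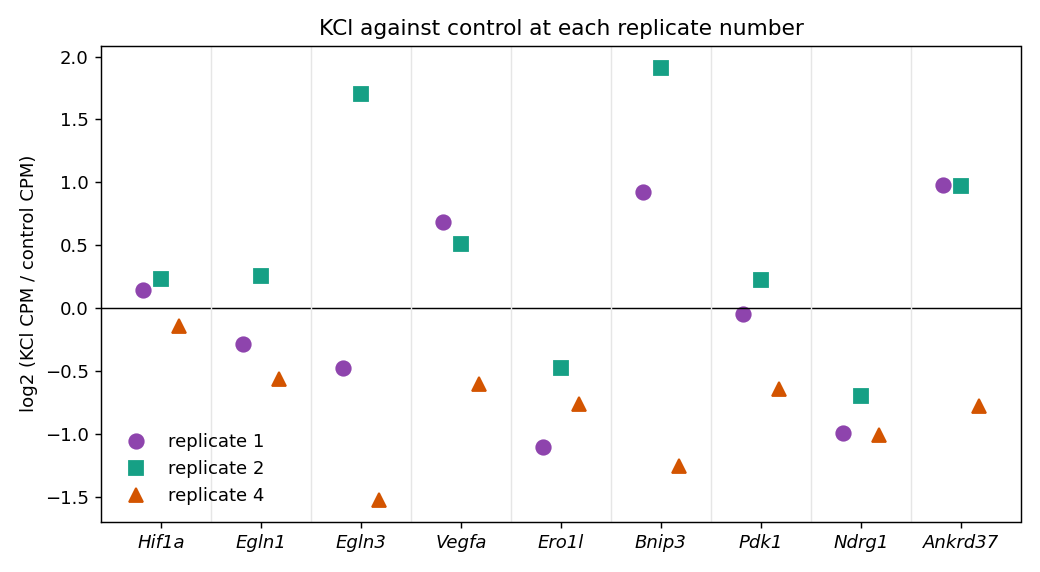
Log2 ratio of KCl CPM to control CPM at replicate numbers 1, 2 and 4 for the 9 tested members (vertical axis, the line marks no difference). Ero1l and Ndrg1 lie below 0 at all 3 numbers, and Bnip3, Ankrd37 and Vegfa lie above 0 at numbers 1 and 2 and below it at number 4.

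Within groups, 8 of the 9 tested members varied more between libraries than the median gene. The pooled within-group SD of log2(CPM + 0.5) was 0.94 for Egln3, 0.80 for Bnip3 and 0.47 for Ankrd37, at the 99.7th, 99.4th and 96.1st percentiles of all tested genes. It was 0.42 for Pdk1, 0.39 for Vegfa, 0.36 for Ndrg1 and 0.35 for Egln1, between the 91.2nd and 94.4th percentiles. Ero1l at 0.22 and Hif1a at 0.11 were steadier, against a median of 0.13 over all tested genes. These values describe 6 libraries, and the mean of KCl 4 and control 4 was tied to that of the others. Without replicate 4 the SE of the fold change was smaller for Ankrd37 (0.16 against 0.34), Bnip3 (0.25 against 0.54) and Vegfa (0.20 against 0.27). It was larger for Ero1l, Ndrg1, Egln1 and Pdk1, and little changed for Egln3 and Hif1a. The within-group SD was not computed without replicate 4.

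Other VEGF ligands and the VEGF receptors made up 8 tested genes, of which 4 rose, 1 fell and 3 stayed short of the threshold. Over all tested genes 12.4% rose and 10.5% fell. The median log2 fold change of this list was 0.44, and 0.61 without replicate 4. Flt1, a high-affinity VEGF receptor that can act as a decoy, fell, with 3.96 ± 0.181 CPM in KCl and 8.18 ± 0.219 CPM in control (-1.05 ± 0.09, edgeR adjusted p = 0.00257). Nrp1, a VEGF co-receptor, rose, with 76.5 ± 5.59 CPM in KCl and 46.4 ± 4.07 CPM in control (0.72 ± 0.09). Vegfb rose as well, with 19.1 ± 0.684 CPM in KCl and 14.5 ± 0.498 CPM in control. Flt4, the receptor of lymphatic vessels, was scarce and higher, with 25, 18 and 25 counts in KCl 1, 2 and 4 and 3, 2 and 1 counts in control 1, 2 and 4. The co-receptor Nrp2 was the other gene that rose (0.29 ± 0.06), but leaving out control 4 took its edgeR adjusted p to 0.0561. Without replicate 4, edgeR called 0 of the 8, with 7 at an unadjusted p under 0.05 (6 higher and 1 lower), against 29.8% of all tested genes.

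Adm, the precursor of the vasodilator peptide adrenomedullin, was close to absent. It had 4, 4 and 3 counts in KCl 1, 2 and 4, against 3, 9 and 6 counts in control 1, 2 and 4, and no difference was detectable at this depth. Adm spans chr7:110627661-110629820 (plus strand). Of the 4 tested genes of the calcitonin receptor-like receptor and its accessory subunits, not all of which serve adrenomedullin, 1 rose, namely Ramp1. Without replicate 4 edgeR called 0 of them, with 2 at an unadjusted p under 0.05, against 29.8% of all tested genes. The median log2 fold change of this list was 0.13, with 0.67 without replicate 4, 0.58 without control 4 and 0.03 without KCl 1. Ramp1, an accessory subunit of the calcitonin receptor-like receptor, had 51.2 ± 5.31 CPM in KCl and 29.2 ± 2.21 CPM in control (0.81 ± 0.10, edgeR adjusted p = 0.00483, and 0.0686 without replicate 4). The receptor gene Calcrl had 21.9 ± 5.15 CPM in KCl and 19.4 ± 3.40 CPM in control, and Ramp3 had 20.9 ± 3.39 CPM in KCl and 22.0 ± 7.24 CPM in control. Ramp2 ran from 0 to 131 counts in KCl and from 3 to 68 counts in control. None of these last 3 passed.

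Pdk1, the kinase that switches off pyruvate dehydrogenase and so keeps pyruvate from being turned into acetyl-CoA, had 82.7, 55.3 and 53.2 CPM in KCl 1, 2 and 4, against 85.2, 47.2 and 83.0 CPM in control 1, 2 and 4. The groups overlapped, with a log2 fold change of -0.17 ± 0.27 (edgeR adjusted p = 0.718) and 0.058 ± 0.34 without replicate 4. It was -0.40 without KCl 1 or without control 2. Pdk1 spans chr2:71873224-71903858 (plus strand). Of 11 tested genes of the pyruvate dehydrogenase complex, its kinases and its phosphatases, 1 fell and 10 did not pass. The shares over all tested genes were 12.4% higher and 10.5% lower. The list had a median log2 fold change of -0.03, with -0.01 without replicate 4 and -0.05 without KCl 1. Pdk3, another such kinase, fell, with 72.8 ± 6.43 CPM in KCl and 95.2 ± 0.617 CPM in control (-0.39 ± 0.07, edgeR adjusted p = 0.0134), and missed the threshold without KCl 4 (0.0536 by edgeR). Without replicate 4, edgeR called 0 of the 11, with 3 at an unadjusted p under 0.05, against 29.8% of all tested genes. Dlat, the acetyltransferase subunit, had 89.1 ± 12.0 CPM in KCl and 72.3 ± 3.51 CPM in control and did not pass.

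Of 8 tested mitophagy genes other than Bnip3, 1 rose and 7 did not pass, while 12.4% of all tested genes rose and 10.5% fell. The list's median log2 fold change was 0.07, with 0.11 without replicate 4, and it ran from 0.02 without KCl 2 to 0.09 without KCl 4 when a single library was left out. None of the 8 was called by edgeR without replicate 4, with 3 at an unadjusted p under 0.05, against 29.8% of all tested genes. Optn, an autophagy adaptor, had 31.0 ± 2.09 CPM in KCl and 21.8 ± 0.873 CPM in control (0.51 ± 0.07, edgeR adjusted p = 0.00674, and 0.0803 without replicate 4). Bnip3l, the closest relative of Bnip3 and named here after its values were seen, had 130, 189 and 102 CPM in KCl 1, 2 and 4, against 103, 95.3 and 155 CPM in control 1, 2 and 4. It followed the arrangement of Bnip3, with a log2 fold change of 0.25 ± 0.28 (edgeR adjusted p = 0.619), and 0.68 without replicate 4 (edgeR adjusted p = 0.109). Fundc1, Pink1 and Bcl2l13 differed by 0.10, 0.08 and 0.07 on the log2 scale and did not pass.

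Other HIF targets outside glycolysis were read as a list. The 36 tested genes held 6 that rose, 5 that fell and 25 that stayed short of the threshold. The shares over all tested genes were 12.4% higher and 10.5% lower. The list's median log2 fold change was 0.10. That median was 0.24 without replicate 4, and it ran from 0.03 without KCl 2 to 0.19 without KCl 4 when a single library was left out. At an unadjusted edgeR p under 0.05, 14 of the 36 were counted with all 6 libraries, against 34.2% of all tested genes. Of those 14, 7 were higher and 7 lower in KCl. Without replicate 4, 19 of the 36 were counted, with 13 higher and 6 lower in KCl, against 29.8% of all tested genes. Stc2, a secreted glycoprotein of stress responses, fell, with 20, 18 and 25 counts in KCl 1, 2 and 4 against 183, 164 and 114 counts in control 1, 2 and 4 (-2.79 ± 0.15, edgeR adjusted p = 0.00154). Bhlhe41, a repressor of the clock and of HIF targets, rose, with 32.6 ± 3.49 CPM in KCl and 10.8 ± 1.15 CPM in control (1.60 ± 0.12, edgeR adjusted p = 0.00232). Stc2 and Bhlhe41 also passed without replicate 4 (edgeR adjusted p = 0.0380 and 0.0429), and no other gene of this list did. In that fit 0.458% of all tested genes passed. Narf (88.1 ± 2.98 CPM in KCl, 63.0 ± 1.56 CPM in control) and the collagen lysyl hydroxylase Plod1 (87.6 ± 6.28 CPM in KCl, 60.0 ± 4.05 CPM in control) rose as well.

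Among 19 tested HIF targets of glycolysis, 2 rose, 1 fell and 16 stayed short of the threshold. The shares over all tested genes were 12.4% higher and 10.5% lower. The list had a median log2 fold change of 0.01 with all 6 libraries, 0.10 without replicate 4 and -0.01 without KCl 2. The hexokinase gene Hk1 rose, with 315 ± 8.70 CPM in KCl and 263 ± 4.52 CPM in control, as did the pyruvate kinase gene Pkm, with 2813 ± 219 CPM in KCl and 2218 ± 45.2 CPM in control. Tpi1, the triose phosphate isomerase gene, fell, with 419 ± 28.6 CPM in KCl and 518 ± 19.6 CPM in control. Gapdh had 317 ± 10.1 CPM in KCl and 369 ± 24.2 CPM in control and did not pass (edgeR adjusted p = 0.0557). Pkm and Tpi1 missed the threshold without KCl 4, control 1 or control 4 (edgeR adjusted p up to 0.0813). With upper-quartile scaling, which lowers the median of all genes to -0.05, 2 rose and 3 fell, and the list median was -0.04. Without replicate 4, edgeR called 0 of the 19, with 7 at an unadjusted p under 0.05, against 29.8% of all tested genes.

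**Figure D4:**
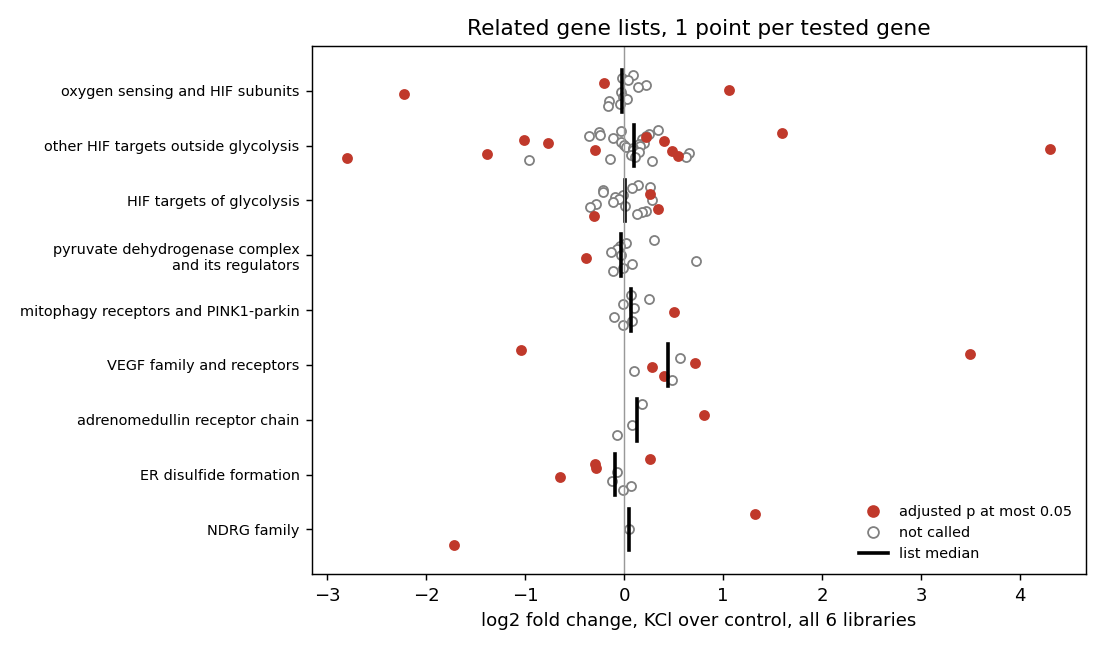
Log2 fold change, KCl over control, with all 6 libraries (horizontal axis), for each tested gene of 9 related lists, filled red where the edgeR adjusted p is at most 0.05 and open where it is not, with the list median as a black bar. The medians lie between -0.09 and 0.44.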

How the data were processed

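RNA was sequenced from 3 KCl and 3 control libraries, grouped by the treatment label, with replicate numbers from the titles. The submitters' processing notes name HISAT2 2.0.4, StringTie 1.3.3b, edgeR and the build mm10. How reads were assigned to genes, and whether by strand, is not stated in the labels. The authors deposited 1 table with a whole-number count and an FPKM value per gene and library. FPKM served only to describe levels.

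The test on counts was edgeR 4.0.16 in R 4.3.3 (robust quasi-likelihood, 2-sided, TMM scaling, filterByExpr with a minimum count of 10 and a minimum total of 15), with Benjamini-Hochberg adjustment over 13326 genes and a threshold of 0.05. Log2 fold changes are KCl over control with their SE. CPM is TMM-scaled, and its precision is set by the library totals. Alternatives were other scalings and filters, DESeq2 1.42.0, limma-voom (limma 3.58.1), a replicate block, a batch term for replicate 4, each library left out, and replicate 4 left out. Coordinates came from GENCODE M21, which held 19049 of the 19162 gene IDs.

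On simulated counts for this comparison (13171 genes), the test called 13 of 50 genes at a true log2 change of 0.5, 39 of 49 at 1, 36 of 47 at -1 and 48 of 50 at 2, and 11 unchanged genes. The simulated libraries were drawn independently, without the tie of KCl 4 and control 4 to the others. These counts may therefore not hold for the deposited libraries. The members and lists were chosen with earlier results of these data known. Named genes were the 10 members, from each list up to 4 genes of smallest p, and every tested gene of lists of 5 or fewer. Others were chosen after their values were seen.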

Additional observations from a re-analysis of the deposited data

How the results depend on the processing

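The count of called members was 2 with all 6 libraries, 1 with replicate 4 as a batch term, and 0 to 2 when libraries were left out. It was 0 by edgeR without KCl 4, without control 4 and without replicate 4, with 2, 4 and 5 members at an unadjusted p under 0.05. Without replicate 4, 29.8% of all tested genes had such a p. That share is not given here for the fits without KCl 4 or control 4, so their counts cannot be set against it. Over all genes the count of calls was 3057 with all 6 libraries, 1573 with that batch term, and 62 to 2851 when libraries were left out. It was 1505 without KCl 4, 1439 without control 4 and 62 without replicate 4. With a replicate block, 1678 genes and 2 members were called. Deviations of same-numbered libraries from their group means correlated at 0.0234, -0.0555 and -0.746 over 13326 genes for numbers 1, 2 and 4. The value for number 4 cannot be told apart from the tie of KCl 4 and control 4 to the other libraries. These correlations therefore do not decide whether the numbers pair the samples. Each of the other scalings, filters and tools called 2 members. In all, 3 uncalled members changed sign. Egln3 stood at -0.077 with limma-voom, -0.12 with the block, and -0.87 to 0.94 when libraries were left out, with -0.87 without KCl 2, -0.073 without control 1 and -0.11 without control 2. With libraries left out, Pdk1 ran from -0.40 to 0.058 and Vegfa from -0.040 to 0.61. Those 3 genes kept their sign in the other alternatives, and the 6 other tested members kept theirs in all 16. Ndrg1 also missed the threshold with the batch term (edgeR adjusted p = 0.0776). The causes were not tested. Depth limits Adm, at 3 to 9 counts per library.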
